A study of Mus musculus with 18 samples.

Results

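The 40 genes described here encode proteins of DNA replication and mitosis, and they were followed in mouse macrophages that carry the T166A form of PPARg or the wild-type (WT) form. PPARg is a lipid-sensing nuclear receptor, and T166A is a change of a threonine to an alanine. The genes were a given list, split by textbook role into 18 replication genes and 22 mitosis genes, and all 40 were found among the 26165 genes of the bone marrow-derived macrophage (BMDM) counts and the 26149 genes of the skin counts. BMDM were grown from femur and tibia marrow of PPARg T166A or C57BL/6J (WT) mice for 7 days with M-CSF at 50 ng/ml, with 3 libraries of each genotype. Batch B1 held replicates 1 and 2 of both BMDM genotypes, and batch B2 held replicate 3. The skin libraries came from dorsal skin of T166A or WT mice at day 6 after skin injury, as the fraction held by magnetic beads against the macrophage protein F4/80, with 6 libraries per genotype and no batch label. The ages and sexes of the mice are not given, and the mutation is present in the whole animal as far as the labels say.

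Replicating cells load the MCM helicase onto origins with Cdc6 and Cdt1, fire it with cyclin E and CDK activity, and copy DNA behind the PCNA clamp with nucleotides made by ribonucleotide reductase, thymidylate synthase and thymidine kinase. Mitosis is then driven by cyclin B with CDK1, by the Plk1 and Aurora kinases and by spindle motors, and it ends when the anaphase-promoting complex (APC/C) with Cdc20 and Ube2c marks cyclins for destruction. Replication genes are mostly transcribed by E2F factors before and during S phase, and mitosis genes later, through promoters that hold CCAAT boxes and a cell cycle genes homology region (CHR). M-CSF is the growth factor that keeps cultured marrow macrophages dividing, and resident and recruited macrophages can also divide in tissue.

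The promoters of Mcm6, Cdt1, Top2a and Hmgb2 are shown because these are the replication and the mitosis genes with the smallest p in skin. Each window runs from 250 bases before to 50 bases after the gene's start, 5′ to 3′ on the gene's strand, from RefSeq (GRCm38.p6, the build called mm10). Mcm6 lies at chr1:128359656-128359955 on the minus strand, Cdt1 at chr8:122567765-122568064 on the plus strand, Top2a at chr11:99024140-99024439 on the minus strand and Hmgb2 at chr8:57511593-57511892 on the plus strand. Capitals mark matches on either strand to E2F words (TTTCCCGC, TTTCGCGC, TTTGCCGC or TTTGGCGC), to CCAAT, and to CHR words (TTTGAA or TTTAAA).
Mcm6: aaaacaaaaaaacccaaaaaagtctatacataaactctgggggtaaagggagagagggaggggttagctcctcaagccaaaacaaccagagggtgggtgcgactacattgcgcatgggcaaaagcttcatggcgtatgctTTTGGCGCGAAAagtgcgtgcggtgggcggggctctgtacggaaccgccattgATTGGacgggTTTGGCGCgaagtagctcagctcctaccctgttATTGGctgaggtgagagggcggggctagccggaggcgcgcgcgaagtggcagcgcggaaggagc
Cdt1: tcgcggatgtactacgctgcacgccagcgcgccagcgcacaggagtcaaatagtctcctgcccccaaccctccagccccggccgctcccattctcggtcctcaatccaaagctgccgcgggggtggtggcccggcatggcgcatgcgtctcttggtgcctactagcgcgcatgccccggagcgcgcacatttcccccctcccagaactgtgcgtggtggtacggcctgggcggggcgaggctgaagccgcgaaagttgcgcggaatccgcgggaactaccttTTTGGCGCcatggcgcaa
Top2a: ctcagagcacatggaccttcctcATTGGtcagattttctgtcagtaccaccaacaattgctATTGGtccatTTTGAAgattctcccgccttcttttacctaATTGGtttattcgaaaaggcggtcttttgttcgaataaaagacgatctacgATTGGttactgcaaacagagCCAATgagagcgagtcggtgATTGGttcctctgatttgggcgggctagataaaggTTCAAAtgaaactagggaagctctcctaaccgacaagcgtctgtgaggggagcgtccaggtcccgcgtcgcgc
Hmgb2: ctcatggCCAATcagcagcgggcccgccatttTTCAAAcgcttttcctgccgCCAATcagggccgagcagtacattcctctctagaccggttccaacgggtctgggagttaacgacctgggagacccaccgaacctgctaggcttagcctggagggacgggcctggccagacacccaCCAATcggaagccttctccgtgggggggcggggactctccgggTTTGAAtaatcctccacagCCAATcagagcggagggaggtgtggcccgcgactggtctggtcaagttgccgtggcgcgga

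The Mcm6 window held 3 E2F words, of which 2 overlap on opposite strands in the first run of capitals, and 2 CCAAT boxes but no CHR word. The Cdt1 window held 1 E2F word. The Top2a window held 6 CCAAT boxes and 2 CHR words, and the Hmgb2 window 4 and 2. A promoter was listed for 31 of the 40 genes, and there were 15 replication promoters (Mcm7 has 2 starts) and 17 mitosis promoters. Mcm4, Ccna2, Ccne2, Aurkb, Kif20a, Tpx2, Stmn1, Gins2 and Gmnn had no entry. An E2F word was found in 40% of the replication promoters and 5.88% of the mitosis promoters, against 2.27% of all 32851 promoters of the same length. A CHR word together with a CCAAT box was found in 82.4% of the mitosis promoters and 20% of the replication promoters, against 10.7% of all promoters. At least 2 CCAAT boxes were present in 64.7% of mitosis promoters, 33.3% of replication promoters and 11.7% of all promoters. A match of letters describes the window and does not show that a factor is bound there.

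Depth was 40072513 to 44152639 gene counts in the BMDM libraries and 29357354 to 38774475 in the skin libraries. The smallest count of any of the 40 genes in a library was 17 in BMDM and 49 in skin, so every gene was detected in every library. Levels are given in CPM, a gene's share of its library's gene counts scaled to a common total. Fold changes are T166A over WT from edgeR's quasi-likelihood fit after TMM scaling, which shifts the log2 fold change against the plain ratio of CPM by -0.03 in BMDM and -0.09 in skin. The macrophage label was checked on 10 markers, which together held 36243 to 48022 CPM in T166A and 39638 to 50799 CPM in WT BMDM. In skin they held 10221 to 11281 CPM in T166A and 11328 to 13512 CPM in WT. The 10 fibroblast markers summed to 7576 to 13292 CPM in T166A and 8676 to 12347 CPM in WT skin libraries. The skin sums therefore do not show that the fraction held macrophages alone. Adipocytes differentiated in culture are named in the protocol for RNA extraction, whereas every library label names macrophages, and the adipocyte genes Adipoq, Plin1, Cidec, Lep, Retn and Cfd were at 0 in every BMDM library. The other listed adipocyte markers, which macrophages also express, were present, Lpl at 2806 to 4123 CPM in T166A and 2529 to 3567 CPM in WT, and Fabp4 at 29.1 to 40.6 CPM in T166A and 37.3 to 46.5 CPM in WT. Whether each replicate was a mouse or culture of its own is not clear from the labels, so the p-values measure the spread between these libraries, which may in part be technical. Transcript counts cannot show a point mutation, so the genotype labels were not checked.

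In BMDM, most of the 40 genes had lower fitted values in T166A than in WT, but none passed the test over all genes. With edgeR's adjusted p under 0.05, 0 of the 40 genes were called, where 0.0685% of 13139 tested genes were (8 or 0.0609% higher and 1 or 0.00761% lower). At an unadjusted p under 0.05, 14 of the 40 were lower (7 replication and 7 mitosis genes, background 6.32%) and 1 was higher (Mki67, background 6.51%), where 12.8% of all genes passed in either direction. DESeq2 called 4 of them lower (Tk1, Rrm2, Stmn1 and Birc5) and none higher, where it called 1.21% of all genes lower and 2.02% higher. With limma-voom 1 was lower (Tk1) and none higher, where 0.221% of all genes were lower and 1.13% higher. The log2 fold change was negative for 17 of 18 replication genes and 16 of 22 mitosis genes, where 52.9% of all genes were negative and 47.1% positive. Its median was -0.42 over the replication genes, -0.41 over the mitosis genes and -0.02 over all genes tested. In 10 genes, 5 from each list, every T166A library lay below every WT library, where this held for 5.82% of all genes. No gene had every T166A library above every WT library (background 8.04%). In bulk RNA, fewer dividing cells and less of each RNA per cell cannot be told apart.

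Tk1 and Rrm2, both nucleotide supply genes, held the smallest p-values of the 40 genes in BMDM, and neither passed edgeR's adjusted threshold. Tk1 (chromosome 11, 117815519 to 117826087), the thymidine kinase that salvages thymidine for DNA synthesis, stood at 11.3, 9.40 and 7.66 CPM in T166A replicates 1 to 3, against 18.5, 27.9 and 15.1 CPM in WT replicates 1 to 3. All T166A libraries were below all WT libraries, and the fold was nearly the same in each batch. The log2 fold change was -1.14 (SE 0.21, edgeR adjusted p = 0.129), with -1.13 in batch B1 and -1.12 in batch B2. Rrm2 (chromosome 12, 24708254 to 24714146), the small subunit of ribonucleotide reductase, stood at 9.04, 10.4 and 6.29 CPM in T166A, against 15.2, 16.3 and 10.8 CPM in WT. The groups again did not overlap, and replicate 3 was the lowest library of each genotype (log2 fold change -0.76, SE 0.18, edgeR adjusted p = 0.184). Pcna (chromosome 2, 132249286 to 132253180), the sliding clamp of the replication polymerases, was the most abundant of the 40 genes per transcript length, at 241 CPM per kb in T166A and 328 CPM per kb in WT. Its CPM was 306, 367 and 427 in T166A, against 420.1, 603 and 469 in WT. T166A replicate 3 was above WT replicate 1, and the log2 fold change was -0.48 (SE 0.18, edgeR adjusted p = 0.318). Rrm1, the large reductase subunit, and Tyms, the thymidylate synthase, had log2 fold changes of -0.32 (SE 0.14) and -0.48 (SE 0.40), and neither passed the test.

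Among the genes that license and open origins, Mcm7 (chromosome 5, 138164583 to 138172111) and Mcm5 (chromosome 8, 75109468 to 75128439), which encode subunits of the MCM helicase, had the smallest p. Mcm7 stood at 27.3, 23.3 and 29.4 CPM in T166A, against 41.5, 44.3 and 32.1 CPM in WT. No T166A library reached the lowest WT library, and the log2 fold change was -0.58 (SE 0.16, edgeR adjusted p = 0.231). Mcm5 stood at 34.4, 28.3 and 15.9 CPM in T166A, against 37.7, 43.6 and 21.99 CPM in WT. Replicate 3 was the lowest library of each genotype, so the groups overlapped although T166A was below WT in both batches (log2 fold change -0.44, SE 0.15, edgeR adjusted p = 0.304). The other MCM subunits ran between -0.37 for Mcm2 and 0.20 for Mcm4, the single replication gene with a positive value. Cdc6, a helicase loader, was lower in every T166A library (log2 fold change -0.62, SE 0.28) and so was Ccne1, a cyclin of S phase entry (-0.79, SE 0.28), while Cdt1, Mcm6 and the transcription factor E2f1 lay between -0.15 and -0.07. None of these passed the test.

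The mitosis genes were split by what happened in batch B2. Stmn1 (chromosome 4, 134468320 to 134473843), which encodes the microtubule-destabilising protein stathmin and was the most abundant mitosis gene per kb, stood at 28.2, 43.9 and 51.7 CPM in T166A, against 62.3, 89.4 and 71.1 CPM in WT. All T166A libraries were below all WT libraries (fitted log2 fold change -0.90, SE 0.22, edgeR adjusted p = 0.198). Birc5 (chromosome 11, 117849237 to 117855743), which encodes survivin of the chromosomal passenger complex, stood at 6.41, 7.75 and 14.6 CPM in T166A, against 13.2, 25.2 and 20.9 CPM in WT. T166A replicate 3 was above WT replicate 1, so the groups overlapped (log2 fold change -1.17, SE 0.29, edgeR adjusted p = 0.198). Plk1 (chromosome 7, 122159435 to 122169884), the kinase of mitotic entry and spindle assembly, stood at 4.55, 4.97 and 5.13 CPM in T166A, against 8.24, 9.72 and 7.19 CPM in WT. The T166A libraries were close together and below all those of WT (log2 fold change -0.81, SE 0.22, edgeR adjusted p = 0.235). Ccnb2 (chromosome 9, 70407689 to 70421554), a B-type cyclin, stood at 5.46, 7.04 and 10.5 CPM in T166A, against 12.9, 20.7 and 12.1 CPM in WT. T166A replicate 3 came near the WT range without reaching it (log2 fold change -1.06, SE 0.30, edgeR adjusted p = 0.239).

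**Figure D1:**
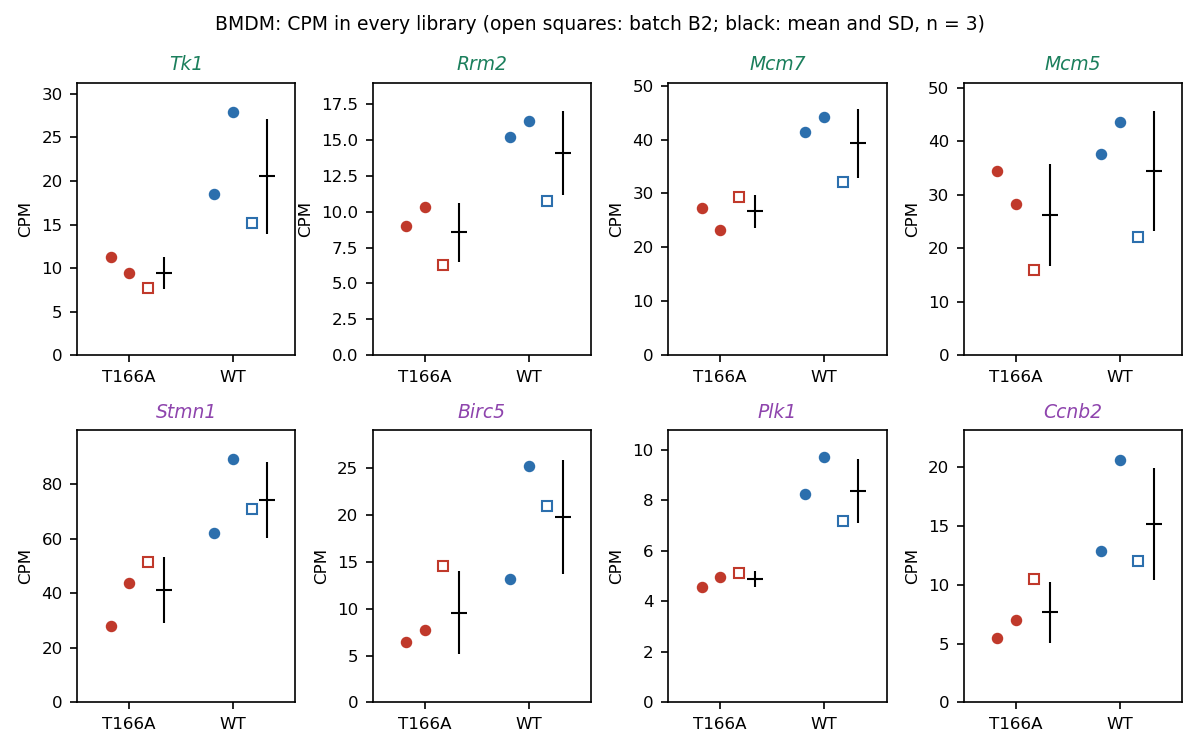
CPM of the 4 replication genes (green titles) and 4 mitosis genes (purple titles) with the smallest p in BMDM, one point per library, with T166A left of WT (open squares: batch B2; black bars: mean and SD, n = 3). All T166A libraries lie below all WT libraries for Tk1, Rrm2, Mcm7, Stmn1, Plk1 and Ccnb2, and the groups overlap for Mcm5 and Birc5.

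Within batch B1 the replication genes had a median log2 difference of -0.51 and the mitosis genes of -0.82, against -0.00 over all genes. All 18 replication genes and 19 of 22 mitosis genes were negative there (background 50.1%). Within batch B2, with 1 library per genotype and no test, the replication genes stayed lower in T166A with a median of -0.27, whereas the mitosis genes were higher with a median of 0.22, against -0.10 over all genes. There 15 of 18 replication genes and 8 of 22 mitosis genes were negative (background 60.3%). A negative value in both batches was found for 15 of 18 replication genes and 8 of 22 mitosis genes, where 31.6% of all genes had this. The mitosis genes that differed most between the batches were Kif11, the motor that separates spindle poles (-0.03 in B1 and 1.96 in B2), Bub1, a kinase of the spindle checkpoint (-0.87 and 0.97), and Ccnb1, a B-type cyclin (-1.08 and 0.66). The proliferation marker Mki67 (0.47 and 1.28) and the kinetochore genes Cenpe (1.23 and 0.83) and Cenpf (0.19 and 0.40) were positive in both batches. Single libraries moved these medians: the mitosis median of the BMDM fit was -0.84 without T166A replicate 3, -0.83 without WT replicate 3, -0.26 without T166A replicate 1 and -0.20 without WT replicate 2, and the replication median was -0.27 without WT replicate 2.

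**Figure D2:**
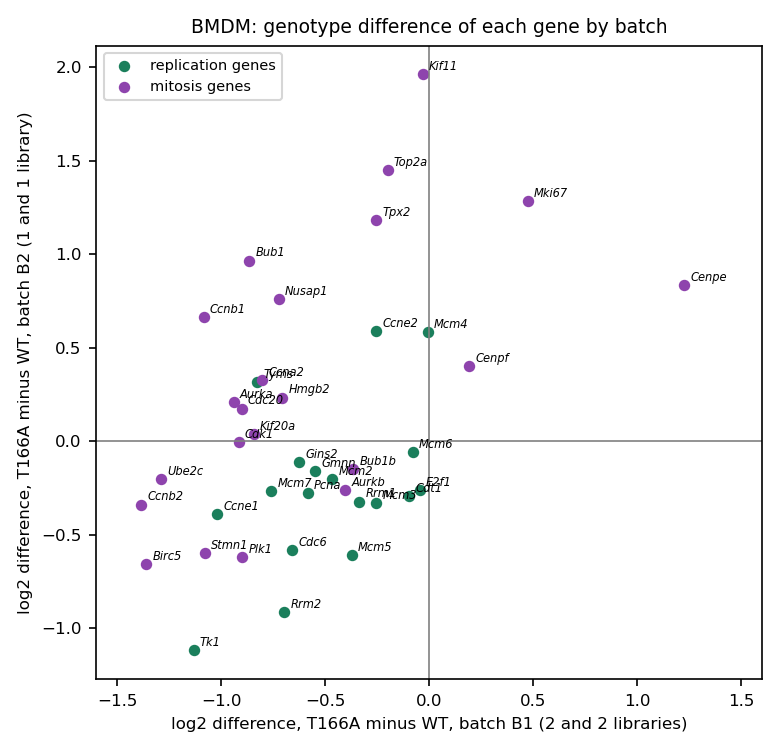
Log2 difference, T166A minus WT, of each of the 40 genes in BMDM batch B1 (horizontal, 2 and 2 libraries) and batch B2 (vertical, 1 and 1 library). The replication genes lie mostly at lower left, with 15 of 18 below 0 on both axes, and 8 of 22 mitosis genes lie there.

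T166A replicate 3 stood apart from the other T166A libraries on the mitosis genes. Their summed level was 172, 226 and 367 CPM in T166A replicates 1 to 3, against 289, 400.2 and 304 CPM in WT replicates 1 to 3. The summed replication genes did not overlap, at 647, 709 and 764 CPM in T166A, against 833, 1065 and 826 CPM in WT. Pcna alone held 306, 367 and 427 CPM of these sums in T166A and 420.1, 603 and 469 CPM in WT. Over the mitosis genes the median coefficient of variation between libraries was 44.8% in T166A and 22.5% in WT, and over the replication genes it was 17.9% and 18.6%. The same T166A library held most of the fibroblast signal, since the 10 fibroblast markers summed to 23.3 to 479 CPM in T166A, against 10.6 to 85.3 CPM in WT, with Col1a1 at 251 CPM in T166A replicate 3. The part of these cells in the mitosis values was not tested.

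The BMDM log2 fold changes varied with transcript length, and most markers of immature marrow cells were also lower in T166A. Over 12971 genes the log2 fold change was higher for longer transcripts (Spearman's rho 0.45), and among the mitosis genes rho was 0.79 (n = 22) and among the replication genes 0.52 (n = 18), as descriptions over genes that share their libraries. Over mitosis genes with transcripts under 3 kb the median log2 fold change was -0.57 (10 genes), against -0.02 for those of 3 kb or more (12 genes). For the replication genes these medians were -0.58 and -0.32. All 10 listed markers of haematopoietic progenitors were measured and 9 of them had negative values, with a sum of 28.7 to 31.9 CPM in T166A and 47.6 to 56.9 CPM in WT, and none was called. With the length trend removed from each library, the medians were -0.41 over the replication genes and -0.40 over the mitosis genes, and edgeR called 0 of the 40 genes. The part of progenitors in the differences was not tested.

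Other genes of the cell cycle in BMDM were read from the same fit. By edgeR, none of 30 further replication genes, 32 further mitosis genes or 28 cell cycle control genes passed the adjusted threshold. At an unadjusted p under 0.05, 8, 8 and 5 of them were lower and 0, 0 and 3 higher (background 6.32% lower and 6.51% higher). DESeq2 called 2 further replication genes (Mcm10 and Chaf1b), 3 further mitosis genes (Cdca3, Ccnf and Spc24) and 2 control genes (Myc and Cdkn1c) lower. It called 1 control gene (Rb1) higher, where it called 1.21% of all genes lower and 2.02% higher. With limma-voom 1 control gene (Cdkn1c) was lower, where 0.221% of all genes were. The median log2 fold changes of the further replication, further mitosis and control genes in edgeR were -0.32, -0.31 and -0.12. The smallest p among further replication genes belonged to Mcm10, an initiation factor (log2 fold change -1.15, SE 0.24, edgeR adjusted p = 0.171), and Chaf1b, a subunit of the histone chaperone CAF-1 (-1.10, SE 0.25). Mcm10 stood at 3.47, 3.44 and 2.21 CPM in T166A, against 7.08, 7.61 and 4.97 CPM in WT, without overlap. Among further mitosis genes they were Cdca3 (-1.07, SE 0.24) and Ccnf (-0.93, SE 0.22), which both act in protein degradation by SCF ubiquitin ligases. Among control genes they were Myc, a growth-promoting transcription factor (-1.06, SE 0.22), and Cdkn1c, a CDK inhibitor (-0.80, SE 0.20).

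In skin wound macrophages many mitosis genes were called higher in T166A, while calls among the replication genes were near the background in both directions. With edgeR's adjusted p under 0.05, 10 of 22 mitosis genes were higher in T166A and 0 were lower, while 3 of 18 replication genes were higher and 3 lower, where 12.7% of 15473 tested genes were higher and 13.2% lower (25.9% in either direction). The mitosis genes that rose were Top2a, Hmgb2, Plk1, Cenpf, Kif11, Ube2c, Ccna2, Cdk1, Cenpe and Kif20a, by 1.26-fold to 1.82-fold. Only Plk1 and Cenpf of the 13 genes that rose passed 1.5-fold. Mcm6, Mcm5 and Rrm1 rose, and Cdt1, Pcna and E2f1 fell. The median log2 fold change was 0.37 over the mitosis genes and 0.13 over the replication genes, against 0.01 over all genes tested. It was positive for 21 of 22 mitosis genes and 11 of 18 replication genes, where 51.6% of all genes were positive. In 9 genes, 7 of them mitosis genes, every T166A library lay above every WT library (background 8.82%), and in Cdt1 alone every T166A library lay below (background 4.08%).

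**Figure D3:**
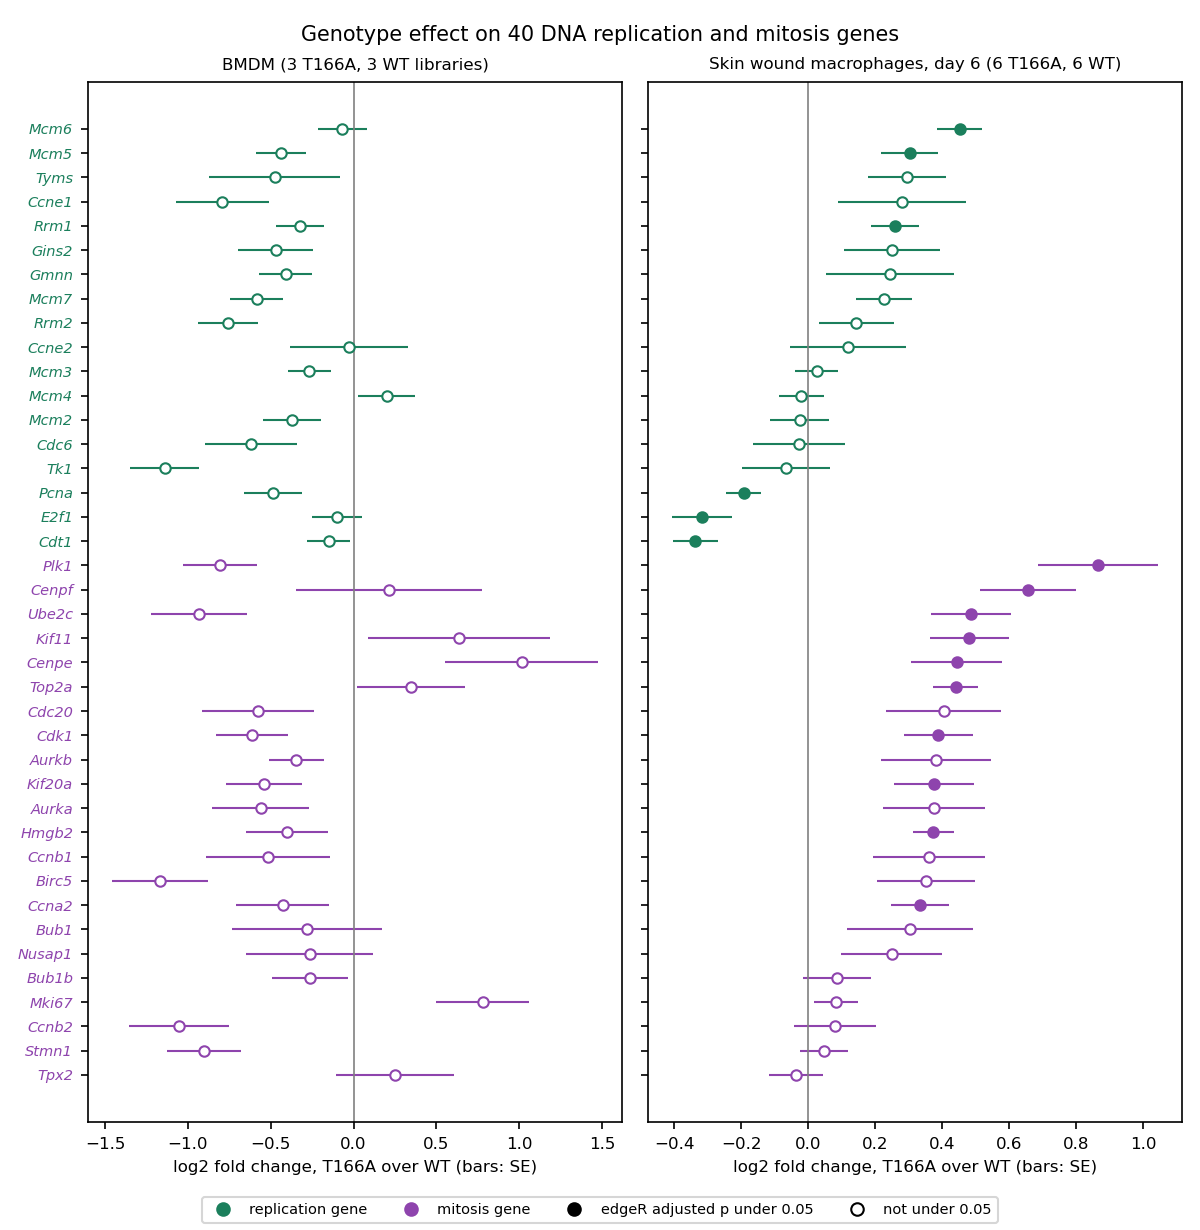
Log2 fold change, T166A over WT, with its SE for the 40 genes in BMDM (left) and in skin wound macrophages (right), with replication genes in green above mitosis genes in purple. Filled points passed edgeR's adjusted p of 0.05: 0 in BMDM, and 10 mitosis and 6 replication genes in skin, where 21 of 22 mitosis genes lie right of 0.

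Of the 10 licensing and helicase genes, 2 rose and 1 fell in skin, near the background of 12.7% higher and 13.2% lower. Mcm6 (chromosome 1, 128331575 to 128359705), a helicase subunit, ran from 35.6 to 43.3 CPM in T166A (median 39.6) and from 24.1 to 29.6 CPM in WT (median 27.8). Every T166A library was above every WT library, and Mcm6 rose 1.37-fold (log2 fold change 0.45, SE 0.07, edgeR adjusted p = 2.5e-05). Cdt1 (chromosome 8, 122568015 to 122573130), which loads the helicase and is destroyed once S phase begins, ran from 25.2 to 32.5 CPM in T166A (median 30.4) and from 32.8 to 37.5 CPM in WT (median 36.0). Its highest T166A library was just under its lowest WT library, and it fell to 0.791-fold (log2 fold change -0.34, SE 0.07, edgeR adjusted p = 0.00059). Mcm5 rose 1.23-fold with overlapping groups (log2 fold change 0.30, SE 0.08, edgeR adjusted p = 0.0099), and Mcm7 missed the threshold at 1.17-fold (edgeR adjusted p = 0.0504). Mcm2, Mcm3, Mcm4 and Cdc6 had log2 fold changes of -0.03 to 0.03. Gins2, a subunit of the active helicase, and Gmnn, which blocks Cdt1, had positive values of 0.25 and 0.24 that did not pass.

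Among the nucleotide supply genes and the clamp, Rrm1 (chromosome 7, 102441695 to 102469771) ran from 29.7 to 37.5 CPM in T166A (median 31.0) and from 22.7 to 29.1 CPM in WT (median 24.3). The groups did not overlap and Rrm1 rose 1.20-fold (log2 fold change 0.26, SE 0.07, edgeR adjusted p = 0.0087). Pcna was again the most abundant gene per kb, at 87.1 CPM per kb in T166A and 93.8 CPM per kb in WT. It ran from 122 to 142 CPM in T166A (median 133) and from 129.8 to 155 CPM in WT (median 142). The ranges overlapped for much of their length, and Pcna fell to 0.875-fold (log2 fold change -0.19, SE 0.05, edgeR adjusted p = 0.0089). E2f1, which activates genes of S phase, fell to 0.802-fold (log2 fold change -0.32, SE 0.09, edgeR adjusted p = 0.010). Rrm2 and Tyms had values of 0.14 and 0.29 and Tk1 of -0.07, and these did not pass, nor did the E-type cyclins Ccne1 (0.28) and Ccne2 (0.12).

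**Figure D4:**
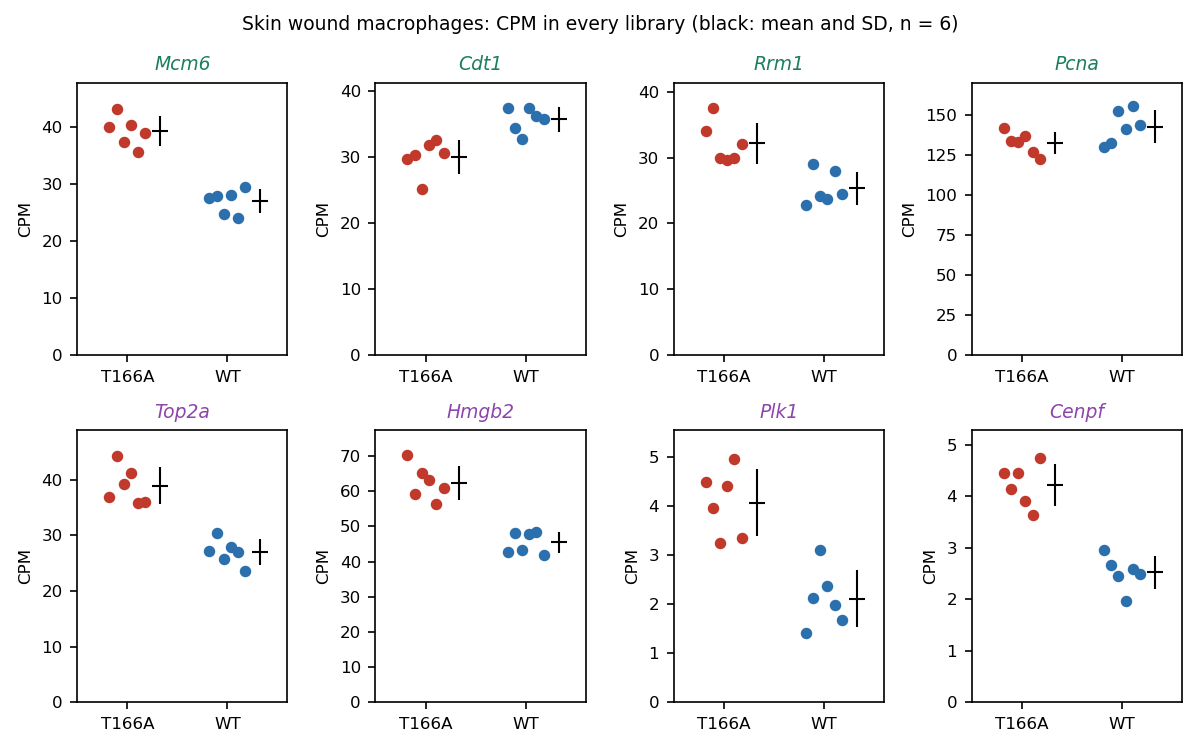
CPM of the 4 replication genes (green titles) and 4 mitosis genes (purple titles) with the smallest p in skin wound macrophages, one point per library, with T166A left of WT (black bars: mean and SD, n = 6). The groups do not overlap for Mcm6, Rrm1, Top2a, Hmgb2, Plk1 and Cenpf, where T166A is above, nor for Cdt1, where T166A is below, and they overlap for Pcna.

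Of the genes that act on mitotic chromosomes, 2 of 3 rose in skin (background 12.7%). Top2a (chromosome 11, 98992947 to 99024199) ran from 35.8 to 44.2 CPM in T166A (median 38.1) and from 23.6 to 30.5 CPM in WT (median 27.1). Every T166A library was above every WT library, by 1.36-fold in the fit (log2 fold change 0.44, SE 0.07, edgeR adjusted p = 3.6e-05). Hmgb2 (chromosome 8, 57511843 to 57515999), a DNA-bending chromatin protein of dividing cells, ran from 56.4 to 70.2 CPM in T166A (median 61.9) and from 42.0 to 48.4 CPM in WT (median 45.7). It was likewise separated and rose 1.30-fold (log2 fold change 0.37, SE 0.06, edgeR adjusted p = 7.1e-05). Mki67 ran from 89.7 to 113 CPM in T166A (median 95.2) and from 77.3 to 104 CPM in WT (median 85.2), and its fitted difference on the log2 scale was 0.08 (SE 0.07, edgeR adjusted p = 0.397).

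The kinase Plk1 had the largest fold of the 40 genes in skin. It ran from 3.26 to 4.96 CPM in T166A (median 4.19) and from 1.42 to 3.10 CPM in WT (median 2.06). The highest WT library came close to the lowest T166A library without reaching it, and Plk1 rose 1.82-fold (log2 fold change 0.86, SE 0.18, edgeR adjusted p = 0.00084). Its partners in the list, Aurka, Aurkb and Birc5, had log2 fold changes of 0.37, 0.38 and 0.35 and did not pass. Of the mitotic cyclins and their kinase, Cdk1 rose 1.31-fold and Ccna2 1.26-fold, both without overlap, whereas Ccnb1 (0.36) and Ccnb2 (0.08) did not pass.

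Among the 7 spindle and kinetochore genes, 4 rose in skin (background 12.7%). Cenpf (chromosome 1, 189640606 to 189688107), a kinetochore protein of G2 and mitosis, ran from 3.64 to 4.75 CPM in T166A (median 4.30) and from 1.97 to 2.97 CPM in WT (median 2.53). The groups did not overlap and Cenpf rose 1.58-fold (log2 fold change 0.66, SE 0.14, edgeR adjusted p = 0.0014). The motors Kif11 (1.40-fold), Cenpe (1.36-fold) and Kif20a (1.30-fold) also rose. Stmn1, the most abundant mitosis gene per kb at 26.6 CPM per kb in T166A and 24.3 CPM per kb in WT, ran from 26.2 to 29.7 CPM in T166A (median 28.4) and from 20.8 to 29.1 CPM in WT (median 26.8). The ranges overlapped and its log2 fold change was 0.05 (SE 0.07, edgeR adjusted p = 0.681), and Nusap1 (0.25) and Tpx2 (-0.04) did not pass either. Of the spindle checkpoint and APC/C genes, Ube2c, the APC/C's ubiquitin-conjugating enzyme, rose 1.40-fold (log2 fold change 0.49, SE 0.12, edgeR adjusted p = 0.0041). Cdc20 (0.40), Bub1 (0.30) and Bub1b (0.09) were positive and did not pass.

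Mitosis and replication genes were set against each other within each skin library, which removes the library's scaling. After centring each gene's log2 CPM on all skin libraries, the median of the mitosis genes minus that of the replication genes ran from 0.00 to 0.31 in T166A and from -0.30 to -0.02 in WT. The genotypes did not overlap on this measure. The ratio of the summed CPM of mitosis genes over replication genes ran from 0.878 to 0.998 in T166A and from 0.714 to 0.838 in WT. The summed mitosis genes were separated, at 333 to 368 CPM in T166A and 261 to 313 CPM in WT, and the summed replication genes overlapped, at 369 to 403 CPM in T166A and 346 to 381 CPM in WT. Pcna, which was called lower, alone held 122 to 142 CPM of the replication sums in T166A and 129.8 to 155 CPM in WT. The replication sums and the ratio therefore lean on that gene. In the mitosis sums, Mki67 held 89.7 to 113 CPM in T166A and 77.3 to 104 CPM in WT. Hmgb2 held 56.4 to 70.2 CPM in T166A and 42.0 to 48.4 CPM in WT. The mitosis sums and the ratio likewise lean on these genes. In BMDM the same ratio was 0.265, 0.319 and 0.481 in T166A replicates 1 to 3, against 0.347, 0.376 and 0.368 in WT, so that T166A lay on both sides of WT.

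**Figure D5:**
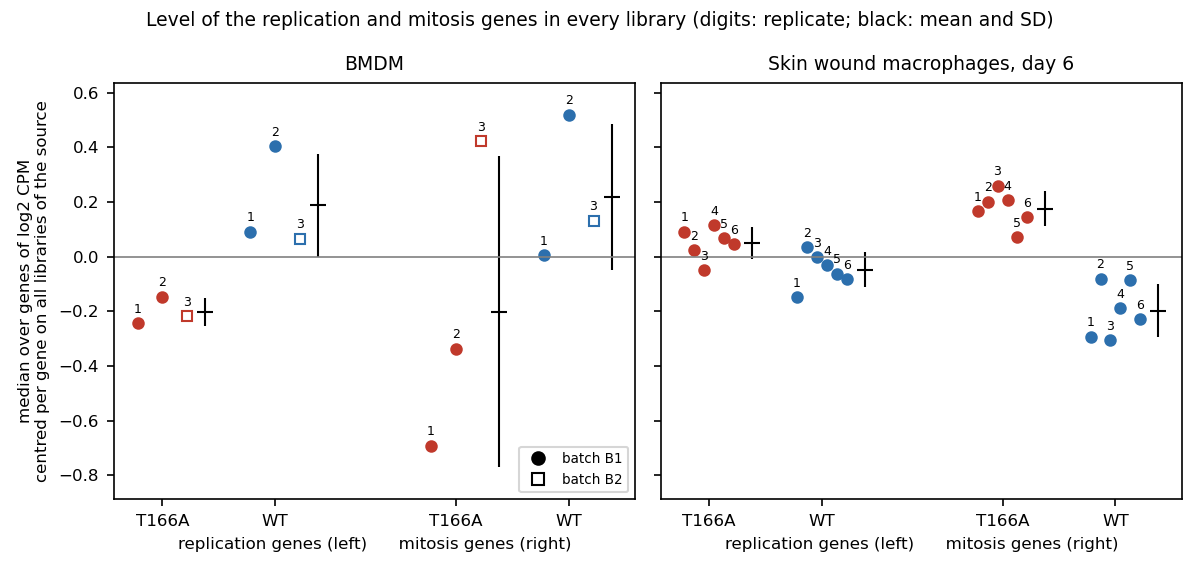
Median over the replication genes (left in each panel) and the mitosis genes (right) of log2 CPM centred per gene on all libraries of the source, one point per library numbered by replicate (open squares: BMDM batch B2; black bars: mean and SD, n = 3 in BMDM and 6 in skin). In skin the mitosis medians of T166A (0.07 to 0.26) lie above those of WT (-0.31 to -0.08), and in BMDM T166A replicate 3 (0.42) lies apart from T166A replicates 1 (-0.69) and 2 (-0.34).

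Further genes of the cycle were counted in skin by the same test, which called 12.7% of all genes higher and 13.2% lower. Of 32 further mitosis genes, 10 were higher and 0 lower by edgeR (Spc25, Smc2, Nuf2, Incenp, Kif4, Prc1, Anln, Ncapd2, Hmmr and Melk), with a median log2 fold change of 0.27. Of 30 further replication genes, 2 were higher and 0 lower (Chaf1a and Clspn), with a median of 0.08. Spc25, a kinetochore subunit, ran from 2.97 to 6.07 CPM in T166A (median 4.56) and from 1.59 to 3.14 CPM in WT (median 2.22), and rose 1.85-fold with a slight overlap. Smc2, a condensin subunit, ran from 11.3 to 15.1 CPM in T166A (median 13.7) and from 8.78 to 10.8 CPM in WT (median 9.73), and rose 1.32-fold without overlap. Chaf1a, the large CAF-1 subunit, and Clspn, a replication checkpoint adaptor, rose 1.37-fold and 1.39-fold. Clspn missed the threshold without T166A replicate 2 (edgeR adjusted p = 0.094), WT replicate 1 (0.067) or WT replicate 2 (0.068).

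Of 27 cell cycle control genes tested in skin, 6 were higher (Cdk6, Cdkn1b, Cdkn2b, Cdkn2c, Rbl1 and Csf1) and 5 lower (Cdkn1a, Cdkn1c, Rb1, Lin54 and Csf1r). Over all genes 12.7% were higher and 13.2% lower. Csf1, which encodes M-CSF itself, ran from 451 to 521 CPM in T166A (median 486) and from 315 to 351 CPM in WT (median 345), and rose 1.34-fold without overlap. Its receptor gene Csf1r fell to 0.801-fold, also without overlap, and it is a macrophage marker as well. Cdkn1c ran from 8.40 to 11.97 CPM in T166A (median 9.62) and from 14.2 to 19.6 CPM in WT (median 16.2), and fell to 0.553-fold. CDK inhibitors therefore stood on both sides, with Cdkn1a (0.845-fold) and Cdkn1c lower and Cdkn1b, Cdkn2b and Cdkn2c higher.

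Markers of other cells also differed between the genotypes in skin, where 12.7% of all genes were called higher and 13.2% lower. Of 8 endothelial markers 6 were higher, with a sum of 1440 to 2028 CPM in T166A and 974 to 1353 CPM in WT, and Pecam1 had a median of 576 CPM in T166A and 368 CPM in WT. Of 7 adipocyte markers tested 5 were higher, among them Adipoq at a median of 9.97 CPM in T166A and 0.860 CPM in WT, while the sum of all 8 overlapped at 811 to 1379 CPM in T166A and 838 to 1054 CPM in WT. Of 10 macrophage markers 8 were lower, and of 7 neutrophil markers tested 4 were lower, with a sum of 165 to 265 CPM in T166A and 245 to 301 CPM in WT. None of 12 keratinocyte markers and none of 10 fibroblast markers was called, although both were present, at 253 to 486 CPM in T166A and 246 to 527 CPM in WT for keratinocyte markers and at 7576 to 13292 CPM in T166A and 8676 to 12347 CPM in WT for fibroblast markers. Of 9 hair matrix markers 1 was lower, with sums from 11.0 to 342 CPM in T166A and from 33.2 to 312 CPM in WT. Of 8 dendritic cell markers 2 were higher and 3 lower, and no marker of T and NK cells passed the low-count filter. Of 7 haematopoietic progenitor markers tested 2 were higher (Kit and Cd34) and none lower, and all 10 summed to 193 to 261 CPM in T166A and 152 to 184 CPM in WT. Kit and Cd34 held most of that sum. Gata2 had a median of 9.85 CPM in T166A and 9.23 CPM in WT, Flt3, Prtn3, Myb and Mpo had medians under 2 CPM in both genotypes, and Elane, Ctsg and Ms4a3 had at most 4, 14 and 1 counts in any library. Which cells of the bead fraction the mitosis RNA came from was not tested. When an adipocyte marker score was added to the fit, a choice made with the data in view, 4 of the 40 genes were called, all higher (Mcm6, Top2a, Kif20a and Hmgb2), where 3.33% of all genes were higher and 5.35% lower. In that fit the medians of the replication and mitosis genes were 0.29 and 0.57. Adipoq (6.87 to 13.9 CPM in T166A and 0.377 to 1.42 CPM in WT), Plin1 and Cidec did not overlap between the genotypes. An adipocyte score is therefore hard to separate from genotype. The lost calls and changed medians cannot be read as an adjustment for adipocytes.

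The last comparison asked whether the genotype effect differed between skin and BMDM, tested as an interaction over all 18 libraries. The difference, skin effect minus BMDM effect, was positive for 33 of the 40 genes, and 18 passed edgeR's adjusted p of 0.05, all positive, 8 replication and 10 mitosis genes. Over all 16586 genes tested, 6.1% passed in the positive direction and 8.17% in the negative direction. The median difference was 0.62 over the replication genes and 0.80 over the mitosis genes, against 0.03 over all genes. Of all 40 genes, 27 had a positive log2 fold change in skin and a negative one in BMDM. A further 6 were negative in both, 5 positive in both, and 2 negative in skin and positive in BMDM. The share of all genes with opposite signs was not counted. Of the 18 genes, 17 were positive in skin and negative in BMDM, and Tk1 was negative in both. These 18 were picked by the same difference in the same libraries, so their signs are no further support. Of the 16 genes called in skin, 9 were among the 18, again from the same skin libraries.

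Plk1 had the largest difference, at 1.71 (SE 0.30, edgeR adjusted p = 0.00081), from a log2 fold change of 0.86 in skin and -0.81 in BMDM. Birc5 differed by 1.56 (SE 0.29, edgeR adjusted p = 0.0015), with 0.35 in skin and -1.17 in BMDM. Ube2c (chromosome 2, 164769929 to 164772902) differed by 1.46 (SE 0.28, edgeR adjusted p = 0.0019), with 0.49 in skin and -0.94 in BMDM. The helicase genes Mcm7 and Mcm5 differed by 0.85 (SE 0.16) and 0.78 (SE 0.15), both with an edgeR adjusted p of 0.0020 to 0.0021. Mki67 stood opposite, with a difference of -0.65 (SE 0.22) that did not pass (edgeR adjusted p = 0.058). Its transcript is long (10.1 kb), and the log2 fold changes in BMDM rose with transcript length. The skin and BMDM fits have different spreads, and when the difference was taken between the separate fits, 8 of the 40 genes passed, all positive (Plk1, Birc5, Ube2c, Cdk1, Mcm7, Mcm5, Rrm2 and Tk1), where 0.875% of 12692 genes passed in the positive and 1.58% in the negative direction. Cell source, culture, tissue injury and library preparation differ together between skin and BMDM and cannot be told apart.

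The counting limits what can be said of some genes. Exons of 10 of the 40 genes (Ccna2, Ccne2, Cdc20, Gins2, Kif20a, Mcm7, Nusap1, Plk1, Tk1 and Ube2c) overlap exons on the opposite strand in GENCODE vM21, and since the sources used here do not state the strand setting, their reads cannot be told apart from those of the partner, such as Tnnc2 for Ube2c (592 shared bases). Pcna, Stmn1, Ccnb1, Ccnb2 and Tyms have named pseudogene copies, whose reads may have been split or dropped, and their levels are uncertain to that degree.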

How the data were processed

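The authors deposited raw counts of RefSeq transcripts, with BMDM and skin in separate tables. FastQC 0.12.1, cutadapt 4.4, HISAT2 2.2.1 and featureCounts were used with mm10, per the submitters' processing notes. The sources used here do not state the strand and multi-mapping settings. For each gene the transcript row of highest summed CPM was kept. Of the transcripts, 117 in each table matched no gene (0.514% of BMDM and 0.187% of skin counts) and were left out.

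R 4.3.3 with edgeR 4.0.16 was used (TMM, filterByExpr with a minimum count of 10 and total of 15, robust quasi-likelihood test, Benjamini-Hochberg adjustment over all genes, threshold 0.05), with batch and genotype in BMDM, genotype in skin, and an interaction over both, and was tested on simulated data. SE is the log2 fold change over the root of F. Same-numbered T166A and WT libraries deviated together in BMDM (correlations 0.200, 0.115 and 0.185). The main BMDM fit held batch and did not pair these libraries. A replicate block, fitted as an alternative, called none of the 40 genes in BMDM, as did the main fit. The block leaves less information on the spread between libraries, so this cannot show whether the pairing matters. Centred values are log2 CPM with a prior count of 2. No pair of libraries was a duplicate.

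Genes with values were the 4 replication and 4 mitosis genes with the smallest p in each source, the most abundant of each per kb, 2 genes of each further list and the top 5 of the interaction, and other genes named were added after their values were seen. The 40 genes, lists, rules and alternatives were chosen with earlier results of these data known. DESeq2 1.42.0 and limma-voom (limma 3.58.1) were alternatives, beside other scaling, filters, transcript sums, removal of length trends, batch terms, marker covariates and leaving out libraries.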

Additional observations from a re-analysis of the deposited data

Results flagged for a closer look

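In 3 of 80 combinations of gene and skin genotype group, 1 library stood apart from its group, where chance gives about 1 in 20. Each was the highest WT library. Aurkb was at 4.85 CPM in WT replicate 5, against 3.46 CPM in the next WT library. Birc5 was at 4.15 CPM in WT replicate 2, against 3.02 CPM in the next, and Tk1 was at 8.85 CPM in WT replicate 4, against 7.22 CPM in the next.

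By edgeR's interaction test, the genotype effect differed between skin and BMDM in 18 of the 40 genes. The differences are given as the skin effect minus the BMDM effect on the log2 scale. The skin and BMDM fits have different spreads. With the difference taken between the separate fits, only Plk1, Birc5, Ube2c, Cdk1, Mcm7, Mcm5, Rrm2 and Tk1 passed. Among the replication genes the difference was 1.11 for Ccne1 and for Tk1, 0.94 for Rrm2, 0.85 for Mcm7, 0.78 for Mcm5, 0.76 for Gins2, 0.62 for Rrm1 and 0.56 for Mcm6. Among the mitosis genes it was 1.71 for Plk1, 1.56 for Birc5, 1.46 for Ube2c, 1.17 for Ccnb2, 1.04 for Cdk1, 0.99 for Stmn1, 0.97 for Aurka, 0.95 for Kif20a, 0.81 for Hmgb2 and 0.80 for Ccna2. The causes of these differences were not tested.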

How the results depend on the processing

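In BMDM the count of called genes was 0 under the other alternatives, 1 without a low-count filter (Tk1), 4 with DESeq2 and 1 with limma-voom, all lower, and the cause was not tested. It stayed 0 without any 1 library, where fewer libraries make a call less likely. The BMDM medians without each library ran from -0.51 to -0.27 for replication genes (-0.27 without WT replicate 2) and from -0.84 to -0.20 for mitosis genes. In batch B2 alone they were -0.27 and 0.22, with 1 library per genotype.

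In skin 15 to 19 genes were called without each library, and 13 with keratinocyte and neutrophil scores (12 higher and 1 lower). With the adipocyte score 4 were called, of 1343 over all genes instead of 4011, and the medians were 0.29 for replication and 0.57 for mitosis genes. That score is hard to separate from genotype. The replication median was 0.21 with limma-voom and ran from 0.088 to 0.19 without each library. Stmn1 turned to -0.0091 with keratinocyte and fibroblast scores and Clspn to -0.077 with the adipocyte score, and neither passed in those fits. Pcna missed the threshold with keratinocyte and neutrophil scores (edgeR adjusted p = 0.052).

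The interaction gave 13 to 27 genes without each library (27 without BMDM T166A replicate 3 or WT replicate 3) and 8 from the separate fits. With a replicate block the counts were 0 in BMDM, 17 in skin and 15 in the interaction. Skin replicate numbers did not pair libraries (correlations -0.045 to 0.090), and not every T166A library correlated best with its own number. Of 15 BMDM genes chosen by rank, 10 passed the threshold, in the same direction, with at least 1 of DESeq2, limma-voom and no filter. These genes were ranked by p or level in the same libraries, so that count is no independent support. Of 14 skin genes so chosen and called, 7 lost the call with at least 1 marker score in the fit (Cdt1, Rrm1, Pcna, Plk1, Cenpf, Chaf1a and Clspn) and 1 (Clspn) without a library. The smallest count of the 40 genes in a library was 17 in BMDM and 49 in skin, so the widest counting error was that of the rarest mitosis transcripts.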
